A study of Mus musculus with 12 samples.

Results

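Oxidative phosphorylation (OXPHOS) subunits encoded in the nucleus were described here in ventral CA1 of mouse brain slices. They were the protein-coding genes whose symbols begin with Ndufa, Ndufb, Ndufc, Ndufs or Ndufv (complex I), Sdha to Sdhd (complex II), Uqcr (complex III), Cox4i, Cox5, Cox6, Cox7 or Cox8 (complex IV) or Atp5 (complex V), with a mean of at least 10 counts over the 12 libraries. Of 55471 gene IDs in the count table, 107 had a matching name and 83 were kept: 38 of complex I, 4 of complex II, 8 of complex III, 16 of complex IV and 17 of complex V. The others were 8 assembly factors or predicted genes, 9 names of pseudogenes, 4 genes that are not protein-coding and 3 genes below the minimum. The nearest gene below it was Cox7b2 with a mean of 8.75 counts, and the nearest above it were Cox4i2 with 23.8 and Ndufa4l2 with 28.6. All 83 passed the low-count filter of the test.

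The inner mitochondrial membrane holds the 5 complexes. Complex I takes electrons from NADH, complex II takes them from succinate, complex III passes them on to cytochrome c, and complex IV hands them to oxygen. Complexes I, III and IV pump protons, and complex V, the ATP synthase, uses the return flow of protons to make ATP. Neurons cover most of the energy cost of synaptic transmission in this way. Most subunits are encoded in the nucleus, while a small set, of every complex but complex II, is encoded in mitochondrial DNA.

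The tissue came from male wild-type C57BL/6J mice 5 to 7 weeks old. Each mouse gave 4 horizontal slices of 400 µm, 1 per group, which rested at least 3 h before use. An area of 1 mm2 in ventral CA1 was taken 30 min after stimulation, and each library pooled the areas of 6 slices, with 3 libraries per group. Control slices had basal stimulation only. STET slices had strong tetanization, 3 trains of 100 pulses at 100 Hz, a protocol for late long-term potentiation. STET_S100 slices had the same tetanization together with stimulation of the basolateral amygdala at 100 Hz. STET_S200 slices had it with amygdala stimulation that the labels give both as 200 Hz and, in brackets, as pulses at 100 Hz. The labels do not tie replicate numbers to particular mice, and p-values measure the spread between these pooled libraries.

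Library totals ran from 36.3 to 52.8 M counts. All 12 markers of excitatory neurons were detected and summed to between 8912 and 9546 CPM (counts scaled to a common library total) in every library. Arc, an immediate early gene of active neurons, was at 80.5 to 115 CPM in the Control libraries and at 170 to 399 CPM in the 9 stimulated ones. All 14 markers of choroid plexus and ependyma were detected, and their summed level ran from 404 to 2002 CPM in Control, 474 to 3447 CPM in STET, 132 to 4289 CPM in STET_S100 and 101 to 177 CPM in STET_S200. Fabp4, a lipid-binding protein of adipocytes and endothelium, exceeded 1 CPM in 5 libraries, namely Control 3, STET 3, STET_S100 1, STET_S200 2 and STET_S200 3, and stayed at or below it in 7. In bulk tissue, fewer cells of a type and less RNA per cell cannot be told apart.

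The subunit genes were abundant and varied little. Together they held 9327 CPM on average, 0.933% of all counts, with a range of 8967 to 9622 CPM over the 12 libraries. Complex V took 3404 CPM of this, complex I 2455, complex IV 1961, complex III 918 and complex II 589. Complex V thus made up 36.5% of the members' CPM. Its catalytic core alone, Atp5a1 and Atp5b (the alpha and beta subunits), held 1829 CPM, which is 53.7% of complex V.

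Levels between genes were compared as CPM per kilobase of the principal transcript (CPM/kb). The median was 66.1 CPM/kb in complex I, 62.3 in complex II, 115 in complex III, 134 in complex IV and 141 in complex V, against 6.98 over the 15277 tested protein-coding genes. Of the 83 members, 76 lay above that median. In complex I the highest were Ndufa4 at 286 CPM/kb, a protein now placed in complex IV by structural work, and Ndufb10 at 115 CPM/kb. The lowest were Ndufa4l2, the hypoxia-inducible paralog of Ndufa4, at 0.693 CPM/kb and Ndufb2, an accessory subunit, at 3.81 CPM/kb. In complex II the flavoprotein Sdha, which oxidises succinate, was at 128 CPM/kb and the iron-sulfur subunit Sdhb at 74.3, while the membrane anchors Sdhd and Sdhc were at 50.4 and 21.9 CPM/kb. Complex III was the most even, from Uqcrq at 74.5 and the Rieske protein Uqcrfs1 at 91.1 to Uqcr11 at 178 and the hinge protein Uqcrh at 207 CPM/kb. Complex IV spanned the widest range, from Cox4i2 at 0.746 and Cox7a1 at 2.17 to Cox4i1 at 505 and Cox8a at 579 CPM/kb. In complex V, Atp5b was at 538 and Atp5a1 at 323 CPM/kb, against 17.7 for Atp5o, the stalk subunit OSCP, and 9.23 for Atp5s, coupling factor B.

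**Figure D1:**
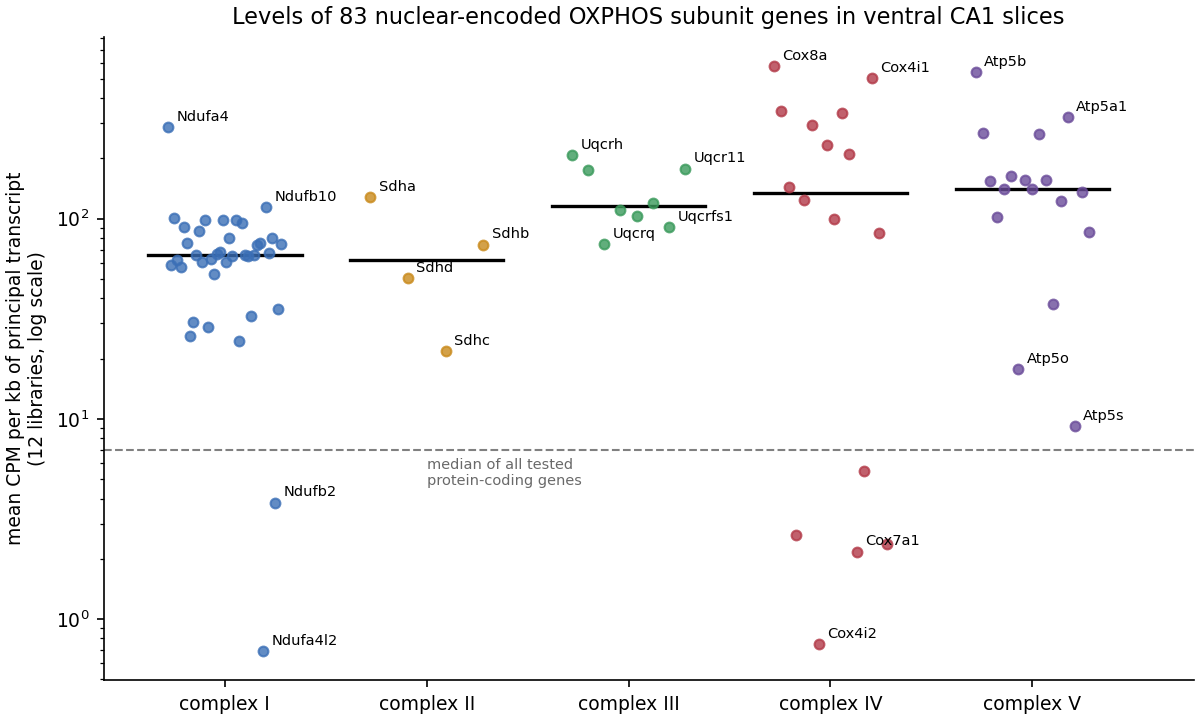
Mean level of each of the 83 subunit genes over the 12 libraries (CPM per kilobase of principal transcript, log scale), by complex; black bars are medians of the complexes, the dashed line is the median of 15277 tested protein-coding genes. The highest and lowest members of each complex are named, and 76 of 83 points lie above the dashed line.

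Complex IV and a few other subunits exist as alternative isoforms, and 1 form dominated in ventral CA1. The general isoform Cox4i1 stood 676 times above Cox4i2, a form known from lung, per kilobase. The heart and skeletal muscle forms were likewise minor, with Cox6a1 62.9 times above Cox6a2, Cox7a2 57.2 times above Cox7a1 and Cox8a 220 times above Cox8b. Cox6b1 exceeded Cox6b2, a form known from testis, 99.1 times, and Ndufa4 exceeded Ndufa4l2 412 times. Cox7a2l, a relative of Cox7a2 that joins complexes III and IV into supercomplexes, was at 84.9 CPM/kb against 124 for Cox7a2. The 3 genes of subunit c, which encode the same mature protein of the ATP synthase rotor ring, were closer together. Atp5g3 was 7.05 times above Atp5g1 and 3.10 times above Atp5g2 per kilobase. These ratios depend on length, which was 2675.5 bases for Atp5g1, against 718.5 for Atp5g3 and 586 for Atp5g2. In mean raw counts Atp5g1 stood above Atp5g2, with 8396.5 for Atp5g3, 4422.25 for Atp5g1 and 2213.5 for Atp5g2. Lengths of merged exons in place of the principal transcript moved the Cox4i pair to 355, the Cox6b pair to 173, the Ndufa4 pair to 186 and Atp5g3 over Atp5g1 to 4.27, each still with the same form on top.

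Of the 6 members under 5 CPM, which are all minor isoforms, all but Cox6a2 differed more between libraries than any other member. Cox8b was at 0.284, 1.01 and 0.984 CPM in Control, 0.159, 2.11 and 1.39 in STET, 2.07, 1.70 and 0.0620 in STET_S100, and 0.0476, 0.910 and 0.656 in STET_S200. Low values occurred in all 4 groups, and the groups overlapped. Of the 5 libraries with Fabp4 above 1 CPM, each held at least 0.656 CPM of Cox8b, and so did Control 2, STET 2 and STET_S100 2. Cox6b2 was at 1.06, 1.34 and 0.929 CPM in Control, 1.11, 2.06 and 1.15 in STET, 2.01, 2.61 and 0.951 in STET_S100, and 0.856, 0.844 and 0.765 in STET_S200. Its 3 highest libraries, STET 2, STET_S100 1 and STET_S100 2, were also the 3 highest in summed choroid plexus markers (3447, 2898 and 4289 CPM).

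The other levels were narrow. Among the 77 members with a mean of at least 5 CPM, the highest library exceeded the lowest by 1.06 to 1.49 times, with a median of 1.14, and 64 of them stayed under 1.2 times. The median SD of log2 CPM within groups was 0.050 over these members and 0.075 over the 11574 tested genes with a mean of at least 5 CPM. Members and genes were not matched in level beyond that minimum. The largest such SDs were 0.14 in Atp5o, 0.12 in Atp5k (subunit e, which helps ATP synthase form dimers) and 0.11 in Ndufb2.

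The complexes moved together from library to library. The mean log2 CPM of a complex's members, with group means removed, correlated over the 12 libraries at r = 0.94 between complexes I and V, 0.89 between I and III, 0.86 between I and IV, 0.64 between I and II and 0.60 between II and V. These are descriptions over libraries that share depth and RNA preparation with every other gene. The same members correlated with 505 other transcripts of under 1000 bases at r = 0.73, with OXPHOS assembly factors at 0.86, with mitochondrially encoded subunits at 0.52, and with the tricarboxylic acid (TCA) cycle at 0.71. With mitochondrial ribosomal protein genes r was 0.65, and with cytosolic ones 0.21. It was −0.06 with glycolysis, −0.33 with protein-coding transcripts of 1000 bases or more and −0.56 with regulators of mitochondrial biogenesis. Among marker lists, r was 0.63 with excitatory neurons, 0.63 with brain endothelium and pericytes, 0.41 with peripheral tissue, 0.39 with choroid plexus and ependyma, 0.38 with microglia, 0.31 with oligodendrocytes, −0.10 with inhibitory neurons and −0.12 with astrocytes. The mean over the 77 members was lowest in Control 1, at 0.06 log2 units under the mean of all libraries, and highest in STET 2, at 0.07 above it.

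**Figure D2:**
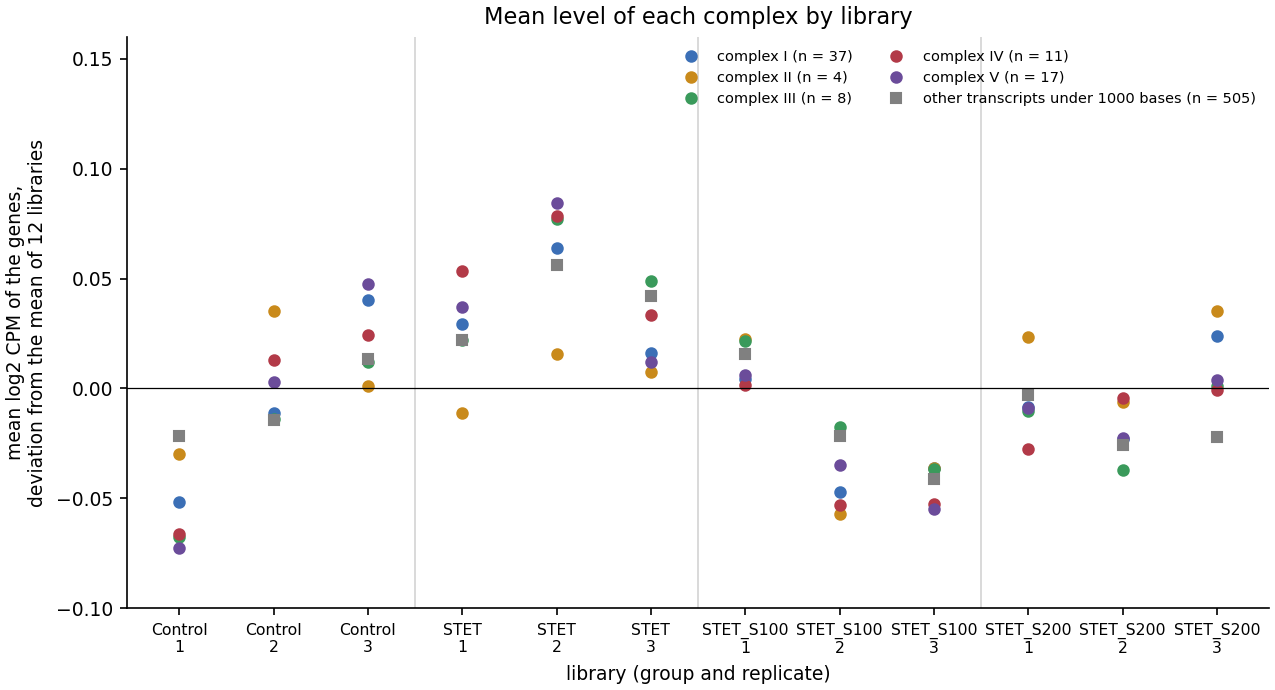
Mean log2 CPM of the members of each complex in each of the 12 libraries, as the deviation from the mean of all libraries (members with a mean of at least 5 CPM, numbers in the key); grey squares are 505 other transcripts of under 1000 bases. Control 1 is low and STET 2 high in complexes I, III, IV and V, and complex II stays closer to 0 in STET.

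Many of these genes are known targets of nuclear respiratory factor 1 (NRF1), which binds a GC-rich palindrome. Promoter windows from RefSeq (GRCm38.p6), from 250 bases before to 50 after the transcription start, were found for 68 of the 83 members. The NRF1 core GCATGCGC, searched on both strands, was in the windows of 10 members (14.7%), against 3.94% of 17492 genes with a window. In 5 members (7.35%), against 1.47% of genes, core matches on both strands overlapped to form the palindrome. On either strand, the GABPA motif CCGGAAGT was in 5 members (7.35%), against 5.69% of genes, the YY1 core AAGATGGC in 10 (14.7%), against 3.57%, and the ERRA motif TCAAGGTCA in 2 (2.94%), against 0.377%. These matches describe the letters and do not show binding. Of the 5 members with this palindrome, Uqcrc1 (complex III) has it at base 31 counted from the start. A relation of the palindrome to the levels across libraries was not tested. The 4 members with this palindrome upstream of the start, from 3 complexes, are printed. In each the capitals mark the 2 overlapping core matches, and the sequence is written 5′ to 3′ on the gene's strand. Ndufa11 (complex I) lies at chr17:56717642-56717761 on the plus strand, and Cox6a1 (complex IV) at chr5:115349051-115349180, Atp5g2 (complex V) at chr15:102671048-102671149 and Atp5k (complex V) at chr5:108434400-108434509, all 3 on the minus strand. The palindrome begins 60 bases before the start in Ndufa11, 162 in Cox6a1, 42 in Atp5g2 and 50 in Atp5k.
Ndufa11: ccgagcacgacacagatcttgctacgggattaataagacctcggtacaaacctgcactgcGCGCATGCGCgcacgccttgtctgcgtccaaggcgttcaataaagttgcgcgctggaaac
Cox6a1: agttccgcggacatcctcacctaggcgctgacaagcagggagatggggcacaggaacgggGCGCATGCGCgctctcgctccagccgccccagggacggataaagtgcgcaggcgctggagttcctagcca
Atp5g2: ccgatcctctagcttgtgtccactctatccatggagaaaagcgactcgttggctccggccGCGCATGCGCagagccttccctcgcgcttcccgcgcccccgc
Atp5k: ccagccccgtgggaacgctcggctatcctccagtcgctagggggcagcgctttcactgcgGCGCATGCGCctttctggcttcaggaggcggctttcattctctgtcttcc

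Tetanization alone was compared with basal stimulation to ask whether late potentiation came with a shift in the respiratory chain. Most subunits were slightly higher in STET, and no single member passed the test. Over the 83 members the median log2 fold change was 0.056, with 68 positive, against a median of −0.00019 and 9725 of 19492 positive over all tested genes. In edgeR's quasi-likelihood test with Benjamini-Hochberg adjustment over all genes, 0 members passed (0% of all tested genes did), and DESeq2 and limma-voom also passed 0 members. At an unadjusted p under 0.05, 11 members were higher, a share to be read against 1.97% of all genes, and 0 were lower, against 1.53%. The STET and Control libraries did not overlap in 12 members, with STET above in 11, against 4.69% of genes, and below in 1, against 4.2%.

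By complex, the median log2 fold change was 0.049 in complex I (31 of 38 positive), 0.052 in complex III (8 of 8), 0.068 in complex IV (13 of 16) and 0.054 in complex V (15 of 17). Complex II stood at −0.0066, with 1 of 4 positive. Differences between complexes were not tested.

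Uqcrq, an accessory subunit of complex III that contacts cytochrome b, had the smallest p. It was at 64.8, 68.6 and 70.5 CPM in Control and at 75.0, 77.8 and 75.4 CPM in STET, without overlap. The means were 68.0 ± 2.89 and 76.1 ± 1.51 CPM (SD, n = 3 each), and the log2 fold change was 0.16 ± 0.04 (SE) with an edgeR adjusted p of 1.00. Atp5mpl, a small proteolipid of the ATP synthase membrane part, was at 57.2, 58.0 and 58.7 CPM in Control and at 65.1, 69.4 and 61.5 CPM in STET. Its log2 fold change was 0.17 ± 0.05 (edgeR adjusted p = 1.00), again without overlap. The neighbours in rank, named here after their values were seen, were Uqcrb (0.14), Cox7a2 (0.13), Ndufb10 (0.10) and Ndufa4 (0.10). On the lower side, Atp5o (−0.17 ± 0.10) and Ndufb9, an accessory subunit of complex I (−0.11 ± 0.07), came first, both with overlapping groups. Sdha was the 1 member with all STET libraries below all Control libraries, at 371, 364 and 363 CPM against 378, 381 and 376.

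**Figure D3:**
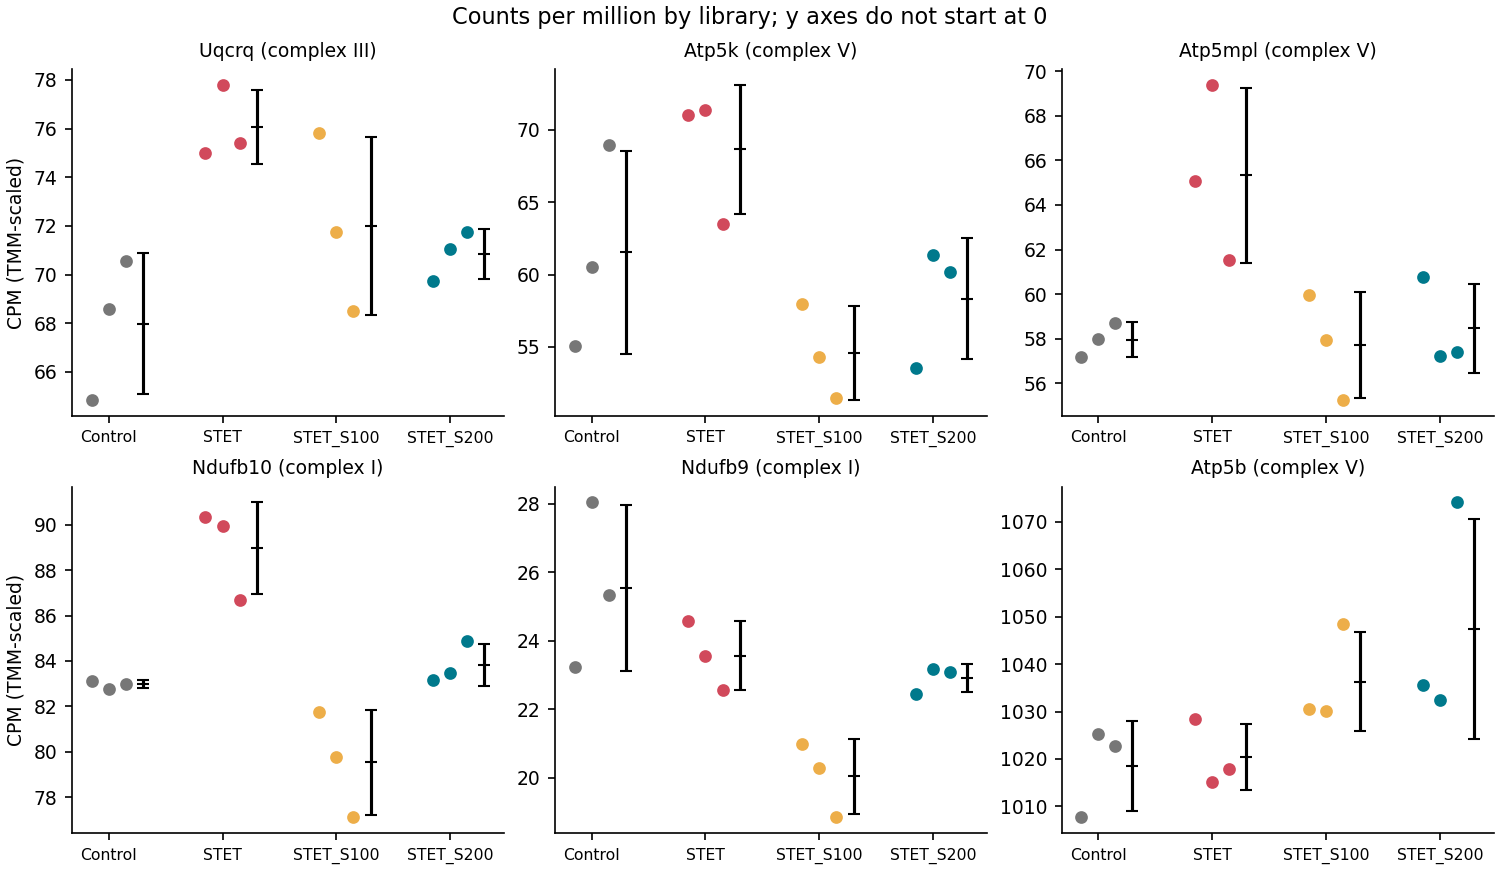
CPM of 6 subunit genes in each library (points), with the mean and SD of the 3 libraries of a group (black); the y axes do not start at 0. Uqcrq, Atp5mpl and Ndufb10 are highest in STET, Ndufb9 is lowest in STET_S100, and Atp5b varies between 1008 and 1074 CPM.

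The size of the difference from Control depended on single libraries. Without Control 1 the members' median was 0.027 and 5 members were higher at an unadjusted p under 0.05, against 2.58% of all genes in the same fit. Without STET 2 these were 0.036 and 5, against 1.8%. Without Control 3 they were 0.071 and 24, against 2.11%. Without the low-count filter the median was 0.064 and 20 members were higher, against 2.17% of the 35834 genes then tested. In the 7 libraries with Fabp4 at or below 1 CPM they were 0.079 and 22, against 1.52%. The median was positive in each of these fits.

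Amygdala stimulation was then set against tetanization alone, to ask whether it altered the potentiated state. Subunit genes were mostly lower in STET_S100 than in STET, where the members' median was −0.056 (log2) and 15 of 83 were positive, against a median of 0.0041 over all genes. In edgeR 0 members passed (0% of all genes did), as in DESeq2 and limma-voom. At an unadjusted p under 0.05, 18 members were lower, against 1.82% of all genes, and 0 were higher, against 1.34%. All STET_S100 libraries lay below all STET libraries in 27 members, against 4.87% of genes, and above them in 2, against 4.73%. The medians were −0.058 in complex I, −0.037 in complex II, −0.079 in complex III, −0.059 in complex IV and −0.056 in complex V. This comparison and the ones of STET with Control and with STET_S200 share the 3 STET libraries, so opposite signs are tied to each other.

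Ndufb10, an accessory subunit of the membrane arm, was at 90.3, 89.9 and 86.7 CPM in STET and at 81.7, 79.8 and 77.1 CPM in STET_S100. Its means were 89.0 ± 2.01 and 79.5 ± 2.32 CPM (SD, n = 3 each), with a log2 difference of −0.16 ± 0.04 (SE, edgeR adjusted p = 1.00). Atp5k, whose promoter is printed above, was at 71.1, 71.4 and 63.5 CPM in STET and at 58.0, 54.3 and 51.5 CPM in STET_S100, a log2 fold change of −0.33 ± 0.08 (edgeR adjusted p = 1.00), without overlap. Next in rank, and named after their values were seen, were Atp5mpl (−0.18), Cox7c (−0.16), Atp5e (−0.20) and Cox6c (−0.15), small subunits of complexes V and IV. The positive member with the smallest p was Cox6b2 (0.37), whose tie to the choroid-rich libraries is given above, followed by Atp5a1. The latter was at 786, 792 and 787 CPM in STET and at 807, 796 and 822 CPM in STET_S100, a log2 fold change of 0.04. Atp5b lay above STET in every STET_S100 library by 0.02 at the mean, so the 2 most abundant members went against the small ones. In the 7 libraries with Fabp4 at or below 1 CPM the members' median was −0.087. Leaving out 1 library moved the median of −0.056 to between −0.076, without STET_S100 1, and −0.045, without STET 2. The 18 lower members became 12 without STET 2 (1.62% of genes), 13 without STET_S100 2 (1.66%) and 22 without Control 3 (2.01%).

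STET_S200 against STET gave a similar picture for the short members, with 0 members passing in edgeR (0% of all genes), DESeq2 and limma-voom. The members' median was −0.048 with 25 of 83 positive, against 0.0023 over all genes. At an unadjusted p under 0.05, 17 were lower, against 2.42% of genes, and 0 were higher, against 2.13%. All STET_S200 libraries lay below all STET libraries in 28 members, against 5.76% of genes, and above them in 4, against 6.22%. Medians were −0.041 in complex I, 0.028 in complex II, −0.075 in complex III, −0.076 in complex IV and −0.016 in complex V. Atp5e, the epsilon subunit of the ATP synthase stalk, was at 69.7, 75.8 and 70.5 CPM in STET and at 63.2, 61.0 and 61.8 CPM in STET_S200, a log2 fold change of −0.22 ± 0.06 (edgeR adjusted p = 0.938). Ndufa3, an accessory subunit of complex I, was at 54.9, 57.0 and 53.0 CPM and at 45.8, 49.7 and 50.5 CPM, a log2 fold change of −0.18 ± 0.05 (edgeR adjusted p = 0.938). Neither gene's groups overlapped. Ndufa9 (0.06) and Atp5a1 (0.04) led the higher side.

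The 17 lower members of STET_S200 became 8 without STET 2, where 1.56% of all genes were lower at an unadjusted p under 0.05. They became 10 without STET_S200 1 (2.94% of genes) and 9 without STET_S200 2 (2.61%). In the 7 libraries with low Fabp4 the STET_S200 group kept only STET_S200 1, and the members' median was −0.064. With the choroid plexus score as a covariate, 1 was lower, against 1.39% of genes, 1 was higher, against 2.05%, and the median was −0.022. Every STET_S200 library was low in choroid markers, and their summed level (101 to 177 CPM) was shared with only 1 other library, STET_S100 3 (132 CPM), so the group and the markers cannot be told apart here.

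**Figure D4:**
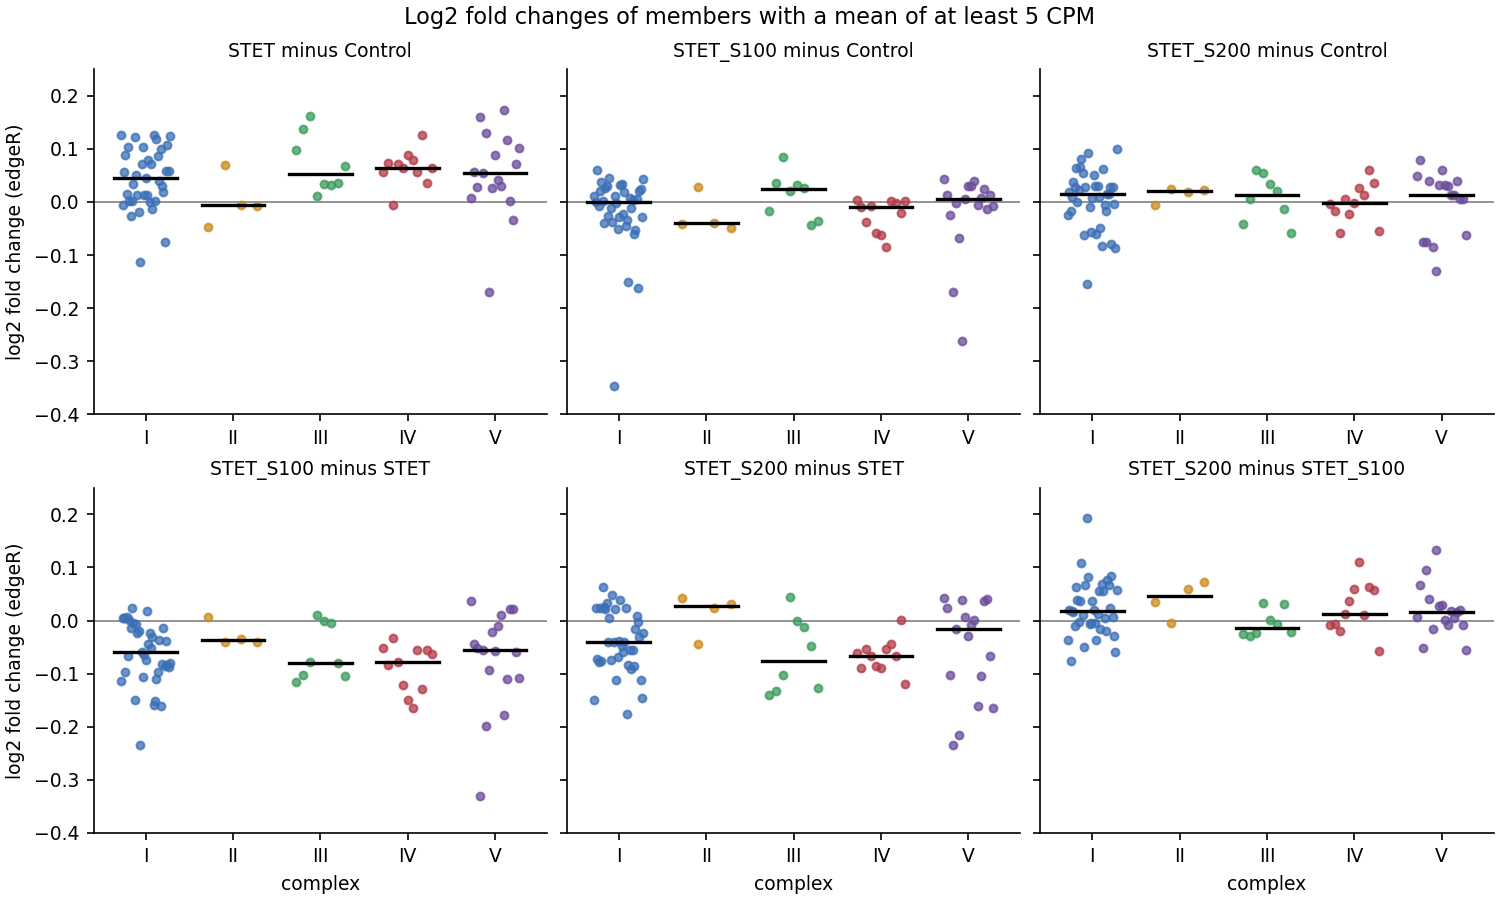
Log2 fold changes of the 77 members with a mean of at least 5 CPM, by complex, in the 6 pairwise comparisons; each point is a gene and black bars are medians. Points of complexes I, III, IV and V lie mostly above 0 in STET minus Control and mostly below 0 in STET_S100 minus STET.

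Among the 4 groups, STET had the highest mean in 49 of 83 members (59.0%) and the lowest in 3 (3.61%), against 21.4% and 23.2% of all tested genes. STET was also highest in 41.2% of the 907 other protein-coding genes with transcripts of under 1000 bases and in 86.3% of the 80 cytosolic ribosomal protein genes. The share was 22 of 38 in complex I, 1 of 4 in complex II, 7 of 8 in complex III, 9 of 16 in complex IV and 10 of 17 in complex V.

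Transcript length, which the choice of members did not use, divided them. Most subunits are small proteins, and 53 of the 83 principal transcripts are under 1000 bases: 24 in complex I, 0 in complex II, 5 in complex III, 14 in complex IV and 10 in complex V. STET had the highest mean in 40 of these 53 and the lowest in 0, but the highest in 9 of the 30 longer members, where STET_S200 was highest in 16. In STET against Control the median log2 fold change was 0.074 in the short members (47 of 53 positive) and 0.014 in the long ones (21 of 30). In STET_S100 against STET it was −0.082 and −0.014, and in STET_S200 against STET −0.079 and 0.022. Spearman's rho of log2 fold change with length over the 83 members was −0.548, 0.458 and 0.698 in these 3 comparisons, against −0.170, 0.106 and 0.111 over 15277 protein-coding genes. Comparisons without STET alone had such relations too. Members' rho was 0.450 in STET_S200 against Control and 0.323 in STET_S200 against STET_S100, against −0.039 and 0.00049 over those genes. In STET_S100 against Control it was 0.113, against −0.046. These are correlations across genes, which are not replicates.

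Other short transcripts shifted in the same direction. The 907 other protein-coding genes of under 1000 bases had medians of 0.042, −0.043 and −0.045 in the same 3 comparisons, and the 80 cytosolic ribosomal protein genes had 0.062, −0.075 and −0.082. Protein-coding genes of 1000 bases or more, members left out, had −0.0052, 0.0086 and 0.0066. With an offset for transcript length fitted in each library, the members' medians were 0.028 in STET against Control, −0.029 in STET_S100 against STET and −0.033 in STET_S200 against STET, with 6 members higher, 12 lower and 12 lower at an unadjusted p under 0.05. The shares of all genes in those directions under this offset were 1.78%, 1.69% and 2.32%. What lies behind the length relation was not tested.

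**Figure D5:**
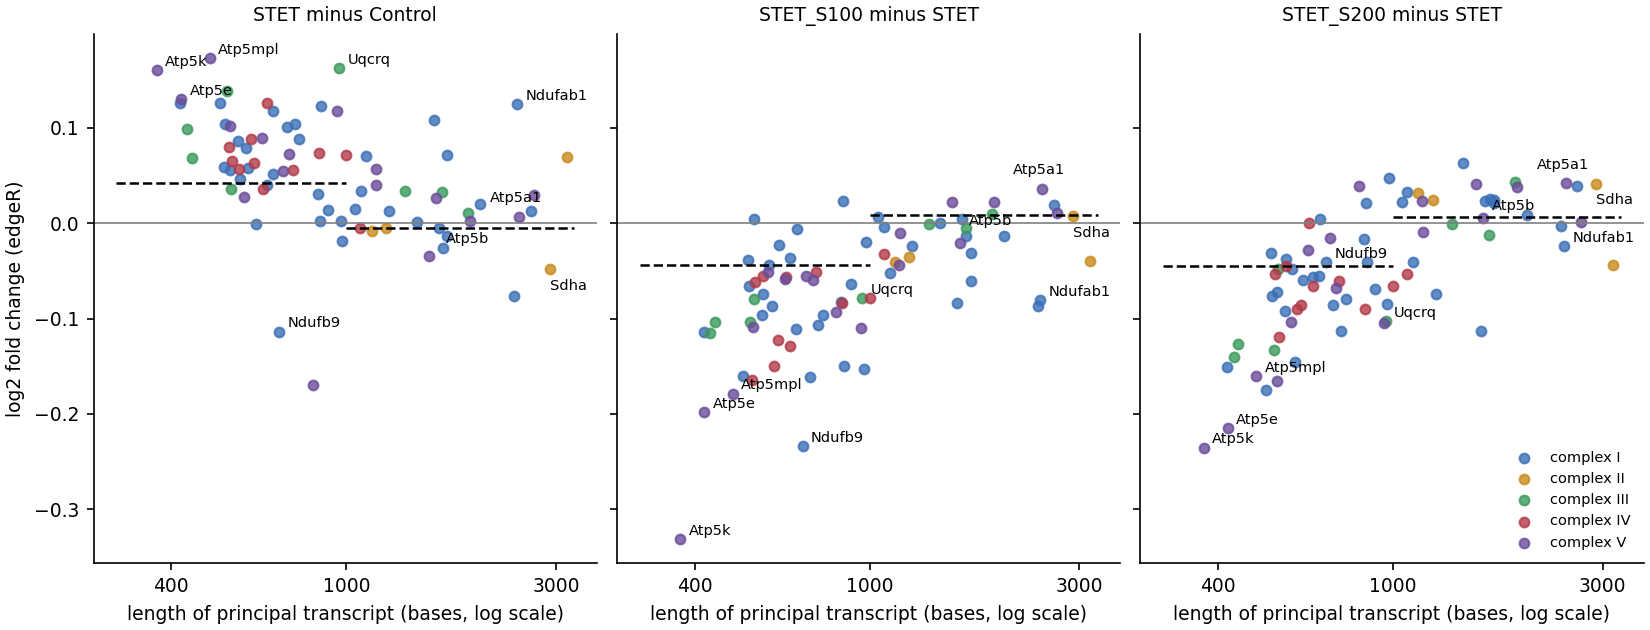
Log2 fold change against length of the principal transcript (bases, log scale) for the 77 members with a mean of at least 5 CPM, in the 3 comparisons that involve STET; dashed lines are the medians of the other protein-coding genes under 1000 bases and of 1000 bases or more. Short members such as Atp5k, Atp5e and Atp5mpl lie farthest from 0 and Atp5a1 and Atp5b close to it.

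Both amygdala groups lay close to Control. In STET_S100 against Control the members' median was −0.0011 with 40 of 83 positive. In edgeR 0 passed (0% of genes), in limma-voom 0 and in DESeq2 1, Ndufb9. At an unadjusted p under 0.05, 1 was higher, against 2.6% of genes, and 3 were lower, against 2.57%. The groups did not overlap in 7 members, 2 above Control, against 5.19% of genes, and 5 below, against 4.93%. In STET_S200 against Control the median was 0.012 with 49 positive, 0 passed in edgeR (0% of genes), DESeq2 or limma-voom, and 0 were higher and 1 lower at an unadjusted p under 0.05, against 2.94% and 2.98% of genes. STET_S200 lay wholly above Control in 5 members, against 5.73% of genes, and wholly below in 3, against 5.28%. For the 3 stimulated groups averaged and set against Control the median was 0.022 with 58 positive, 0 passed in edgeR (0% of genes), DESeq2 or limma-voom, and 2 were higher and 2 lower, against 2.59% and 2.88%. The 4 were Uqcrq (0.10) and Ndufab1 (0.09), the mitochondrial acyl carrier protein, on the higher side and Ndufb9 (−0.21) and Atp5o (−0.19) on the lower. Without Control 1, 6 members were lower in STET_S100 and 7 in STET_S200, against 3.37% and 3.9% of all genes in these fits. Without STET_S100 1, 7 were lower in STET_S100, against 2.15%. With the choroid plexus score as a covariate 5 were lower in STET_S100, against 2.81%. With that covariate the median of STET_S200 against Control was 0.031 with 63 of 83 positive, 2 members higher, against 2.44% of genes, and 0 lower, against 2.07%. Every STET_S200 library was low in choroid markers, so this group and the markers cannot be told apart. In the mean of the stimulated groups, 5 were higher without Control 3, against 2.1%. In the 7 libraries with low Fabp4, where STET_S200 kept only STET_S200 1, the median of that mean was 0.033.

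Ndufb9 was the member with the smallest p in STET_S100 against Control. It was at 23.2, 28.0 and 25.3 CPM in Control, 24.6, 23.6 and 22.6 in STET, 21.0, 20.3 and 18.8 in STET_S100, and 22.4, 23.2 and 23.1 in STET_S200. The STET_S100 libraries lay below all 9 others. The means were 25.5 ± 2.41 CPM in Control and 20.0 ± 1.09 CPM in STET_S100 (SD, n = 3 each). The log2 fold change was −0.35 ± 0.07 (SE), with an edgeR adjusted p of 0.902. It ranked 2 of 19492 genes by p in that comparison. DESeq2 gave an adjusted p of 0.0483, edgeR without the low-count filter gave 0.00323, and the other settings gave 0.164 to 1.00. The gene shares 19.5% of its exonic bases on the same strand with Gm49356, which had 0 counts in all libraries, and how reads of that stretch were assigned is not given in the labels. The other lower members with the smallest p were Atp5o (−0.26 ± 0.10, edgeR adjusted p = 0.902) in STET_S100 and Cox6a2 (−0.24 ± 0.12, edgeR adjusted p = 0.828) in STET_S200. Atp5o was at 15.1, 16.1 and 17.9 CPM in Control and at 13.9, 14.6 and 12.3 CPM in STET_S100, and 35.6% of its exonic bases are overlapped on the opposite strand by D430001F17Rik and Gm15976. A second gene ID named Atp5o overlaps 12.3% of its exonic bases on the same strand and had 0 counts in all libraries, and its level of 17.7 CPM/kb carries the same limit. On the higher side were Cox6b2 (0.74) and Uqcrq (0.08) in STET_S100 and Ndufab1 (0.10) and Atp5c1 (0.08), the gamma subunit, in STET_S200.

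The 2 amygdala groups differed little from each other. In STET_S200 against STET_S100 the members' median was 0.012 with 50 of 83 positive, and 0 passed in edgeR (0% of genes), DESeq2 and limma-voom. At an unadjusted p under 0.05, 3 were higher, against 1.98% of genes, and 1 was lower, against 3.23%. STET_S200 lay wholly above STET_S100 in 9 members, against 4.57% of genes, and wholly below in 2, against 4.77%. The higher ones were Ndufb9 (0.19 ± 0.07, edgeR adjusted p = 0.956), Cox7c, an accessory subunit of complex IV (0.11), and Ndufa5 (0.11). Cox6b2 was lower (−1.16 ± 0.33, edgeR adjusted p = 0.956), and its log2 fold change was −0.09 with the choroid plexus score as a covariate. Every STET_S200 library was low in choroid markers, so in this comparison too the group and the markers cannot be told apart. Cox6a2 was the next lower member (−0.20), at 3.87, 3.71 and 3.93 CPM in STET_S100 and at 3.35, 3.33 and 3.34 CPM in STET_S200. Without STET_S100 1, 6 members were higher, against 1.65% of genes, and without STET_S200 2, 5 were, against 2.34%. With the choroid plexus score as a covariate the members' median was 0.034 with 64 of 83 positive, 4 were higher, against 1.81% of genes, and 0 were lower, against 1.23%.

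Related mitochondrial genes were read from lists. The 48 tested OXPHOS assembly factors, which build the complexes without staying in them, had medians of 0.016 in STET against Control, −0.033 in STET_S100 against STET and 0.0083 in STET_S200 against STET. In STET against Control 1 was higher, against 1.97% of all genes, and 1 lower, against 1.53%, at an unadjusted p under 0.05. The 13 mitochondrially encoded subunits had medians of 0.041, −0.11 and −0.044. In STET_S100 against STET all 13 were negative, where the median over all genes was 0.0041. At an unadjusted p under 0.05, 0 of the 13 were found, against 1.34% of all genes higher and 1.82% lower. The spread of the 13 within groups was larger, with a pooled SD of 0.080 log2 units for their mean against 0.032 for the members. The 77 mitochondrial ribosomal protein genes had 0.027, −0.021 and −0.013. The 18 TCA cycle genes had −0.0029, 0.013 and 0.024, the 16 glycolytic genes −0.013, 0.0069 and 0.040, and the 16 regulators of mitochondrial biogenesis −0.0051, 0.020 and 0.016. None of these genes passed the edgeR threshold in any comparison, as 0% of all tested genes did.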

How the data were processed

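Poly(A) RNA of 12 libraries was sequenced with directional paired-end reads of 150 bp. The deposited values were raw counts per Ensembl gene ID, 1 column per sample. Per the submitters' processing notes, the tools were STAR 2.7.1a with HTSeq 0.11.2, after Trimmomatic 0.39, and limma in R 4.0.2. The build, annotation and strand setting of the counts: not given in the sources used here. Without the strand setting, reads of overlapping genes cannot be assigned. Of 55471 IDs, 55230 were found in GENCODE vM21, which gave symbols, biotypes and the length of the principal transcript. At least 1 other gene matched 29 members over at least 150 bases at 95% identity or more (Atp5l had 9 such genes), so their counts may be split.

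Counts were scaled by TMM and tested in edgeR 4.0.16 (R 4.3.3, robust quasi-likelihood fit of all 12 libraries, 1 coefficient per group). The filter filterByExpr (count of 10, total of 15) kept 19492 genes. P-values were adjusted by Benjamini-Hochberg over all of them, with a threshold of 0.05. CPM are TMM-scaled, except the summed neuron markers, which use plain library totals. Same-group libraries gave 5.06 to 20.6 as the chi-square divided by its degrees of freedom, so no pair was a duplicate, and counting error understates the spread. Members, lists and alternatives were chosen with earlier results of these data known. Named were the 2 members with the smallest p in each direction of each comparison, the 2 highest and 2 lowest per complex, isoform pairs and the 3 of largest spread; other names are stated as chosen after their values were seen, or serve as examples of a count. DESeq2 1.42.0 and limma-voom 3.58.1 were alternatives. Promoters came from RefSeq (GRCm38.p6).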

Additional observations from a re-analysis of the deposited data

How the results depend on the processing

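Members called at an adjusted p under 0.05 were counted under 20 other settings, 12 of which left out 1 library. It differed from 0 only in those named here. Without the low-count filter it was 1 in STET_S100 against Control (Ndufb9), 1 in STET_S100 against STET (Atp5k), 2 in STET_S200 against STET (Atp5e and Atp5k) and 1 in STET_S200 against STET_S100 (Cox6b2), and that setting called 16 to 98 genes of all per comparison. DESeq2 called 1 member, Ndufb9, in STET_S100 against Control, and 1 to 16 genes of all. Leaving out 1 library moved the members' median from −0.0011 to between −0.036 and 0.019 in STET_S100 against Control, from 0.012 to between −0.012 and 0.029 in STET_S200 against Control, and from 0.022 to between −0.011 and 0.039 for the mean of the stimulated groups. The lowest values were without Control 1 and the highest without Control 3. In STET_S200 against STET_S100 it moved from 0.012 to between −0.0031, without STET_S200 3, and 0.031, without STET_S100 1. Each of these medians took both signs. With 0 members called in the main fit, there was no called value whose sign could change. Over all tested genes, samples with the same replicate number did not all deviate together (r from −0.285 to 0.330 in 18 pairs, 7 over 0.1, against 10 of 36 pairs with different numbers). Control 2, STET 2 and STET_S100 2 were among the 7, at r of 0.23 to 0.33 with each other. Over the 83 members alone, Control 1 was at r = 0.90 with STET 1, 0.91 with STET_S200 1 and 0.88 with STET_S100 3, but −0.92 with STET_S100 1. Over all tested genes these pairs were at 0.13, 0.20, 0.22 and −0.22. The member correlations include the minor isoforms under 5 CPM, most of which differed more between libraries than the other members. Of these, Cox8b was low in Control 1, STET 1, STET_S200 1 and STET_S100 3 and high in STET_S100 1. Correlations without these isoforms were not computed. Over the members, libraries numbered 2 were at 0.53 to 0.93 with each other. STET_S100 1 was at 0.64 to 0.80 with the libraries numbered 3 of the other groups. With those numbered 2 it was at 0.35 (Control 2), 0.88 (STET 2) and 0.82 (STET_S200 2). A block by replicate number does not match these deviations in STET_S100 1 and STET_S100 3, and what lies behind them was not tested. With the replicate number as a replicate block, 0 members were called in all 7 comparisons and the medians were 0.056 in STET against Control, −0.056 in STET_S100 against STET and −0.049 in STET_S200 against STET. With 3 libraries per group, each group mean rests on few samples, whatever the depth.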
